A study of Mus musculus with 9 samples.

Results

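The genes described here are 10 of the 27945 genes with a count in the deposited tables and comprise the prosurvival genes Bcl2, Bcl2l1 and Mcl1, the effectors Bax and Bak1, and the BH3-only genes Bik, Bad, Bcl2l11, Bid and Bbc3 of the BCL2 family. They were picked by gene symbol, with earlier results of these data known, and no threshold on a measured value was used. Their RNA was measured by sequencing of polyadenylated transcripts in 9 mouse liver libraries, 3 labelled control, 3 model and 3 treated. The series title concerns liver damage by gefitinib, a cancer drug that blocks the EGF receptor kinase. The labels say no more of the model group, and the sources used here do not give what the treated group received, any dose or duration, or the strain, age and sex of the mice. The titles speak of liver cells and the source of liver, and neither says whether the triplicates came from separate mice, so p-values measure only the spread between these libraries, which may be technical.

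Proteins of the BCL2 family decide whether the outer membrane of the mitochondrion stays intact. BAX and BAK1 form pores that release cytochrome c and start the caspase cascade, BCL2, BCL-XL (from Bcl2l1) and MCL1 hold them in check, and BH3-only proteins, which share a single short helix with the rest, neutralise the guardians or activate the effectors. In hepatocytes, BCL-XL and MCL1 are known as the main guardians, and BID links death receptors on the cell surface to the mitochondrion.

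The data held 56440871 to 60665156 estimated counts per library, and all 10 genes passed the filter on low counts that left 18113 genes for testing. Levels below are CPM, counts scaled to library sizes that were adjusted by TMM (a scaling that sets the bulk of genes equal between libraries), and levels of different genes are compared by FPKM, which also divides by transcript length. A gene was called when its Benjamini-Hochberg adjusted p over all genes tested was under 0.05 in edgeR's quasi-likelihood test. The 10 hepatocyte markers were abundant throughout and summed to 86147 to 99665 CPM in control, 89024 to 92523 in model and 71154 to 86718 in treated libraries, so that each treated library lay below each model library. Most of this sum was Alb, at 58500 to 60300 CPM in model and 46600 to 55400 CPM in treated libraries. The 10 did not move alike. In treated versus control 3 were called lower and 0 higher, and in treated versus model 1 higher and 1 lower. Hnf4a stood at 602 to 682 CPM in control, 463 to 546 in model and 634 to 689 in treated libraries. The 6 red blood cell markers summed to 652 to 949, 861 to 1981 and 348 to 585 CPM. The 14 markers of B, T and natural killer cells summed to 6.42 to 16.3, 14.1 to 16 and 7.13 to 13.3 CPM in control, model and treated libraries, with 0 called in any comparison. The 10 cholangiocyte markers summed to 49.7 to 64.8, 41.9 to 69.2 and 54.1 to 78.4 CPM, with 1 called, lower, in treated versus control. Markers of several other cell types differed more between groups. The 15 markers of macrophages and Kupffer cells summed to 270 to 432 CPM in control, 411 to 498 in model and 957 to 1108 in treated libraries. In treated versus control, 6 of the 15 were called higher and 0 lower. Gpnmb, at 1.38 to 1.88 CPM in control, reached 182 to 316 CPM in treated libraries, and Mpeg1, at 27.2 to 31 CPM, reached 156 to 207 CPM. Clec4f overlapped, at 73.7 to 132 CPM in control and 73.8 to 171 CPM in treated libraries. The 12 endothelial markers summed to 394 to 498, 173 to 194 and 94.3 to 147 CPM. The 12 markers of hepatic stellate cells summed to 275 to 372, 214 to 241 and 398 to 454 CPM. Of these, 2 were called higher and 4 lower in treated versus control. Col1a1 stood at 4.7 to 6.24 CPM in control and 47 to 71.9 CPM in treated libraries, and Col3a1 at 21.7 to 48.7 and 129 to 175 CPM. Lrat, by contrast, stood at 7.8 to 13 CPM in control and 3.75 to 4.81 CPM in treated libraries. The 10 markers of neutrophils summed to 3.92 to 6.46, 14.8 to 30 and 12.6 to 183 CPM, with Ly6g and Mmp8 at 0 in control. The 10 skeletal muscle markers, led by Myh4 and Acta1, summed to 176 CPM in model replicate 1 and to 117 to 154 CPM in the 3 treated libraries, against at most 1.27 CPM in the other 5, where Ckm, Myh1, Myh2, Tnni2 and Pvalb were at 0 in all controls. In bulk RNA, fewer cells of a type and less RNA per cell cannot be told apart, and the part of these cell types in the results below was not tested.

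Of the 10 genes, none was called between model and control, where 1.12% of all genes tested were called. Between treated and model 5 were called, against 9.65% of all genes, and between treated and control 6, against 17.8%. Bcl2l1, Bcl2l11 and Bax were higher and Bik and Bad lower in treated libraries in both of the latter comparisons, which share the treated libraries. The model libraries likewise serve in 2 of the comparisons and the control libraries in 2. Bak1 was called, higher, in treated versus control. Bcl2, Mcl1, Bid and Bbc3 were called in no comparison.

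**Figure D1:**
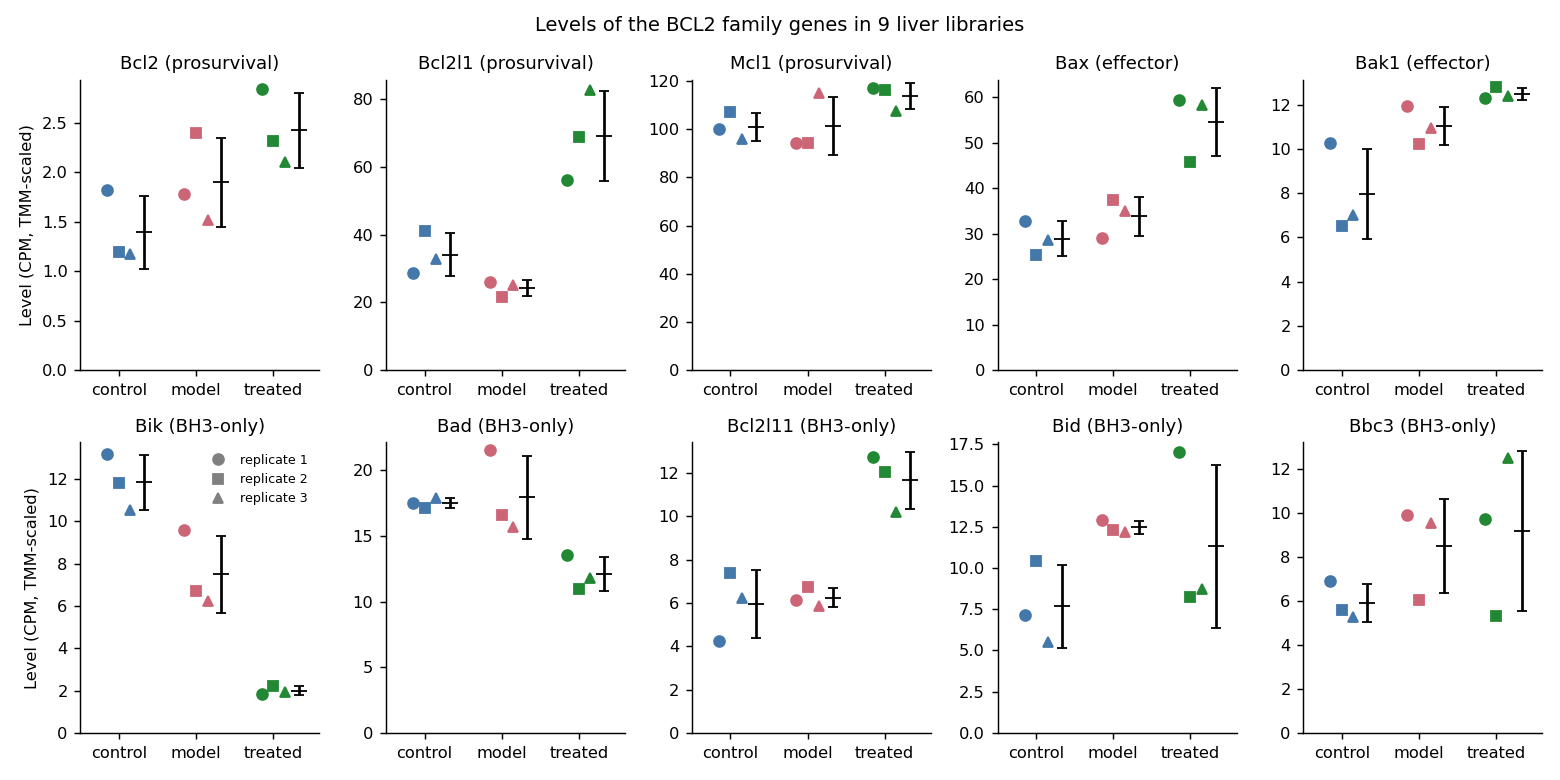
Level of each gene in CPM on TMM-scaled library sizes (vertical axis, linear, from 0) in the control, model and treated libraries. Each symbol is 1 library, and the bar beside each group is the mean ± SD of 3. The treated libraries lie above all others for Bcl2l1, from 56.1 to 82.6 CPM, and below all others for Bik, from 1.82 to 2.23 CPM.

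Bcl2l1 (ENSMUSG00000007659, chr2:152780668-152831728, minus strand, build GRCm38) encodes BCL-XL. Its level was 28.6, 41.0 and 32.8 CPM in the control, 26.0, 21.7 and 25.1 CPM in the model and 56.1, 68.7 and 82.6 CPM in the treated libraries. The 3 groups did not overlap, with model lowest and treated highest. The rise from model to treated had a log2 fold change of 1.51 (95% interval 1.15 to 1.88, SE 0.17, edgeR adjusted p = 0.000525), and the rise over control was 2.03-fold (log2 fold change 1.02, SE 0.16, adjusted p = 0.00192). The step from control to model was a log2 fold change of -0.49 (95% interval -0.85 to -0.13), and it did not pass the test (adjusted p = 0.2). Model replicate 1, whose muscle markers reached those of the treated libraries, held 26.0 CPM. This is 1 library, and the part of muscle RNA was not tested. Both rises kept their call under every alternative tried, each library left out in turn included.

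Nearly all of Bcl2l1 was assigned by the authors' estimates to a pair of transcripts that carry the same coding sequence of 699 bases but begin at different first exons. ENSMUST00000007803 starts at the outer end of the gene, and ENSMUST00000109820 starts inside it. Because the 2 start sites are the part in which these transcripts differ, the 250 bases upstream of each are shown, from the RefSeq annotation on GRCm38.p6, 5′ to 3′ on the gene's strand. The RefSeq start coincides with that of the former transcript and lies 51 bases from that of the latter.
Bcl2l1 outer start, chr2:152831729-152831978, minus strand: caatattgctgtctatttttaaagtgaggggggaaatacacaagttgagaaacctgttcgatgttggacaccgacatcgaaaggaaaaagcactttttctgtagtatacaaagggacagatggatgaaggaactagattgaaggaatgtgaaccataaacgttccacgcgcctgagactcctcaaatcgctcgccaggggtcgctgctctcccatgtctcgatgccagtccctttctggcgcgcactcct
Bcl2l1 inner start, chr2:152830718-152830967, minus strand: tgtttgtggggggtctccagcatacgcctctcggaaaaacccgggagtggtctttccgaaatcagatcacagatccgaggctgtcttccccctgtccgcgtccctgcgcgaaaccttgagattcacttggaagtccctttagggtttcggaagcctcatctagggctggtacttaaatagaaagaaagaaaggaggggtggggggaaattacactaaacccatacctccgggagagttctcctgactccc
Both windows were searched on both strands for 4 motifs: TTCNNNGAA (the site of STAT factors), TGANTCA (AP-1), the half-site of p53, and CACGTG (an E-box). Neither held a match, which says only that these letters are absent from these 250 bases. Among 32851 promoter windows of the same length, 7.02% held the STAT motif, 6.75% the AP-1 motif, 7.13% the p53 half-site and 6.02% the E-box. Their GC content was 47.6% at the outer and 53.2% at the inner start.

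The share of Bcl2l1 given to ENSMUST00000109820 was 69.0%, 26.2% and 78.1% in control, 43.3%, 64.5% and 22.2% in model, and 35.3%, 79.5% and 90.9% in treated libraries. The split thus varied widely within every group, and the groups overlapped. Neither transcript was called alone in any comparison. The largest difference of the pair was that of ENSMUST00000109820 in treated versus model, a log2 fold change of 2.24 with an SE of 0.57 (edgeR adjusted p over all transcripts = 0.202).

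Mcl1 (ENSMUSG00000038612, chr3:95658788-95663176, plus strand) encodes the short-lived guardian MCL1 and was the most abundant of the prosurvival genes. It measured 99.9, 107 and 95.7 CPM in control, 94.2, 94.2 and 115 CPM in model, and 117, 116 and 108 CPM in treated libraries. The treated libraries overlapped the model libraries and lay just above the controls. Its log2 fold change was 0.17 in treated versus model (95% interval -0.07 to 0.40) and 0.17 in treated versus control (95% interval -0.06 to 0.41), and neither passed the test (edgeR adjusted p = 0.376 and adjusted p = 0.306). The upper bounds of these intervals correspond to rises of 1.32-fold and 1.33-fold.

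Bcl2 (ENSMUSG00000057329, chr1:106538178-106714274, minus strand), the founding member of the family, was the scarcest of the 10. It stood at 1.82, 1.19 and 1.18 CPM in control, 1.78, 2.40 and 1.52 CPM in model, and 2.85, 2.32 and 2.11 CPM in treated libraries. The treated libraries lay above the controls and overlapped the model. The difference from control was a log2 fold change of 0.79 (95% interval from 0.09 to 1.5), which did not pass the test over all genes (adjusted p = 0.116).

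The relative weight of the guardians changed with these levels. By FPKM, Bcl2l1 made up 17.4% to 22.1% of the summed prosurvival FPKM in control, 13.9% to 16.9% in model and 26.1% to 36.2% in treated libraries. Mcl1 held 77.6% to 82.0%, 82.5% to 85.7% and 63.3% to 73.2%. Such shares are descriptions of each library and carry no test.

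Bax (ENSMUSG00000003873, chr7:45461697-45466898, minus strand) encodes the effector that waits in the cytosol. It measured 32.9, 25.3 and 28.7 CPM in control, 29.1, 37.5 and 35.1 CPM in model, and 59.4, 45.9 and 58.3 CPM in treated libraries. Control and model overlapped, and every treated library lay above both. Bax rose with a log2 fold change of 0.69 (SE 0.14, edgeR adjusted p = 0.0132) from model to treated and of 0.91 (SE 0.14, adjusted p = 0.00162) from control to treated. The first call was lost without model replicate 1 (adjusted p = 0.0593) or without treated replicate 1 (adjusted p = 0.0504). Since Bax is a known target of p53, the 250 bases upstream of its start are shown, with the matches to the p53 half-site and to the E-box CACGTG in capitals.
Bax promoter, chr7:45466899-45467148, minus strand: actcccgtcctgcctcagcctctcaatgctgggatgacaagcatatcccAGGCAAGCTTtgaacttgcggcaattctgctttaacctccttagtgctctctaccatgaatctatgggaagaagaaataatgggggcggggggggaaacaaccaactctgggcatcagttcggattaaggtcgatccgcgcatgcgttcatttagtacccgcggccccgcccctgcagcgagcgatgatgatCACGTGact
Counted from the start site, the half-site lies at -201 to -192 and the E-box at -9 to -4. These are matches of letters in the RefSeq sequence, and binding was not measured. The half-site occurred in 7.13% of all promoter windows searched and the E-box in 6.02%. No window of Bbc3, also a target of p53, held the half-site. Trp53, which encodes p53, was tested among the regulators described below and was called in no comparison. Its log2 fold change in model versus control was 0.36 (95% interval 0.11 to 0.61, edgeR adjusted p = 0.169). In treated versus model, where Bax was called higher, that of Trp53 was -0.07 (95% interval -0.32 to 0.18, edgeR adjusted p = 0.774). Trp53 stood at 21.3 to 27.2 CPM in control, 29.4 to 33.3 in model and 28 to 31.4 in treated libraries. The protein p53 and its activity were not measured, so any part of it in the Bax values was not tested.

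Transcripts of Bax were more evenly split than those of Bcl2l1. ENSMUST00000210392, with 517 coding bases, held 42.8% to 48.1% of the gene's transcript FPKM in control, 44.8% to 52.9% in model and 50.4% to 57.8% in treated libraries. ENSMUST00000033093, with 576 coding bases, held 34.8% to 46.9% over all 9. Tested alone, ENSMUST00000210392 rose 2.23-fold from control to treated (log2 fold change 1.16, SE 0.19, adjusted p = 0.0346), 1 of only 2 transcripts of the 10 genes to be called. The transcript ENSMUST00000033093 had a log2 fold change of 0.77 (SE 0.20, adjusted p = 0.118) in that comparison.

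Bak1 (ENSMUSG00000057789, chr17:27019810-27029009, minus strand) encodes the effector that resides in the mitochondrial membrane. Its values were 10.3, 6.54 and 7.03 CPM in control, 11.9, 10.2 and 10.9 CPM in model, and 12.3, 12.8 and 12.4 CPM in treated libraries. Treated libraries lay above all others, and control replicate 1 was above the lowest model library. Bak1 rose 1.57-fold from control to treated (log2 fold change 0.65, SE 0.18, edgeR adjusted p = 0.0291). The model lay between, with a log2 fold change of 0.47 from control (95% interval 0.08 to 0.87, adjusted p = 0.265) and of 0.18 to treated (95% interval -0.21 to 0.57, adjusted p = 0.612). The call was lost in the fit of these 2 groups alone (adjusted p = 0.0526) and without control replicate 2 or 3 or any 1 treated library (adjusted p = 0.0663 to 0.0996). Moreover, 2 genes on the opposite strand, Ggnbp1 and Gm50253 (means of 1.48 and 3.19 FPKM against 3.89 FPKM for Bak1), overlap all 9200 bases of Bak1, so its value is uncertain if strand was not used in counting.

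Bik (ENSMUSG00000016758, chr15:83526862-83544634, plus strand), a BH3-only gene whose protein sits at the endoplasmic reticulum, had the largest fold among the 10 in both comparisons with treated libraries. It stood at 13.2, 11.8 and 10.5 CPM in control, 9.56, 6.71 and 6.21 CPM in model, and 1.82, 2.23 and 1.92 CPM in treated libraries. The 3 groups did not overlap and descended in that order. The difference from control to treated was 5.94-fold (log2 fold change -2.57, SE 0.22, edgeR adjusted p = 5.09e-05), and that from model to treated had a log2 fold change of -1.91 (SE 0.21, adjusted p = 0.000532). The step from control to model, a log2 fold change of -0.66 (95% interval -1.11 to -0.21), did not pass the test (adjusted p = 0.165). Both calls held under every alternative tried. Bik shares 538 bases with Gm46495 on the opposite strand, which was listed at a mean of 0.268 FPKM against 3.78 FPKM for Bik.

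Among Bik transcripts, ENSMUST00000016902 held 65.7% to 90.7% of the gene's transcript FPKM and ENSMUST00000230912 held 2.95% to 29.9%, and both carry the same coding sequence of 450 bases. The former fell 4.70-fold from control to treated (log2 fold change -2.23, SE 0.33, adjusted p = 0.0249), the other called transcript of the set. The latter, in that comparison, had a log2 fold change of -3.73 with an SE of 0.91 and was not called (adjusted p = 0.105).

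Bad (ENSMUSG00000024959, chr19:6941861-6951899, plus strand) encodes a BH3-only protein that growth factor signalling keeps phosphorylated and bound to 14-3-3 proteins. It measured 17.5, 17.1 and 17.9 CPM in control, 21.6, 16.6 and 15.7 CPM in model, and 13.5, 11 and 11.8 CPM in treated libraries. Treated libraries lay below the other 6. Bad fell with a log2 fold change of -0.57 (SE 0.15, edgeR adjusted p = 0.0334) from model and of -0.53 (SE 0.15, adjusted p = 0.0282) from control. The call against model was lost in the fit of these 2 groups alone (adjusted p = 0.059), without model replicate 1 (adjusted p = 0.131), without treated replicate 2 or 3 (adjusted p = 0.105 and 0.0949) and on the FPKM scale, where treated replicate 1 (5.30 FPKM) lay level with model replicate 3 (5.30 FPKM). The call against control was lost without any 1 control library or treated replicate 2 or 3 (adjusted p = 0.064 to 0.0929) and on the FPKM scale (adjusted p = 0.123 to 0.18), and Bad shares 620 bases with Gpr137 on the opposite strand (a mean of 6.33 FPKM against 5.40 FPKM for Bad).

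Bcl2l11 (ENSMUSG00000027381, chr2:128126038-128162547, plus strand) encodes BIM, which binds all of the guardians. It measured 4.25, 7.38 and 6.23 CPM in control, 6.14, 6.73 and 5.88 CPM in model, and 12.8, 12.1 and 10.2 CPM in treated libraries. Control and model were interleaved, and all treated libraries lay above them. Bcl2l11 rose with a log2 fold change of 0.90 (SE 0.21, edgeR adjusted p = 0.0224) from model and of 0.97 (SE 0.21, adjusted p = 0.00903) from control. The call against control held under every alternative tried, whereas that against model was lost without model replicate 1 or 3 or without treated replicate 1 or 2 (adjusted p = 0.0605 to 0.0779). Its most abundant transcript over the 9 libraries, ENSMUST00000110341, was listed at 0% in control replicate 1 and held 58.9% to 85.0% in the other 8.

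Bid (ENSMUSG00000004446, chr6:120891930-120916853, minus strand), the substrate of caspase-8 that carries the death receptor signal to mitochondria, measured 7.13, 10.4 and 5.49 CPM in control, 12.9, 12.3 and 12.2 CPM in model, and 17.0, 8.25 and 8.70 CPM in treated libraries. All model libraries lay above all controls, and treated libraries spanned both. The difference between model and control was a log2 fold change of 0.70 (95% interval 0.04 to 1.36) and did not pass the test (edgeR adjusted p = 0.335), and 913 bases of Bid overlap Bcl2l13 on the opposite strand (a mean of 2.97 FPKM against 2.63 FPKM for Bid). Bbc3 (ENSMUSG00000002083, chr7:16308393-16318205, plus strand) encodes PUMA, a target of p53, and measured 6.90, 5.60 and 5.28 CPM in control, 9.93, 6.04 and 9.57 CPM in model, and 9.75, 5.30 and 12.5 CPM in treated libraries. Its groups overlapped in every comparison. The difference between treated and control was a log2 fold change of 0.63 (95% interval -0.03 to 1.29, adjusted p = 0.175), whose upper bound is 2.45-fold.

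**Figure D2:**
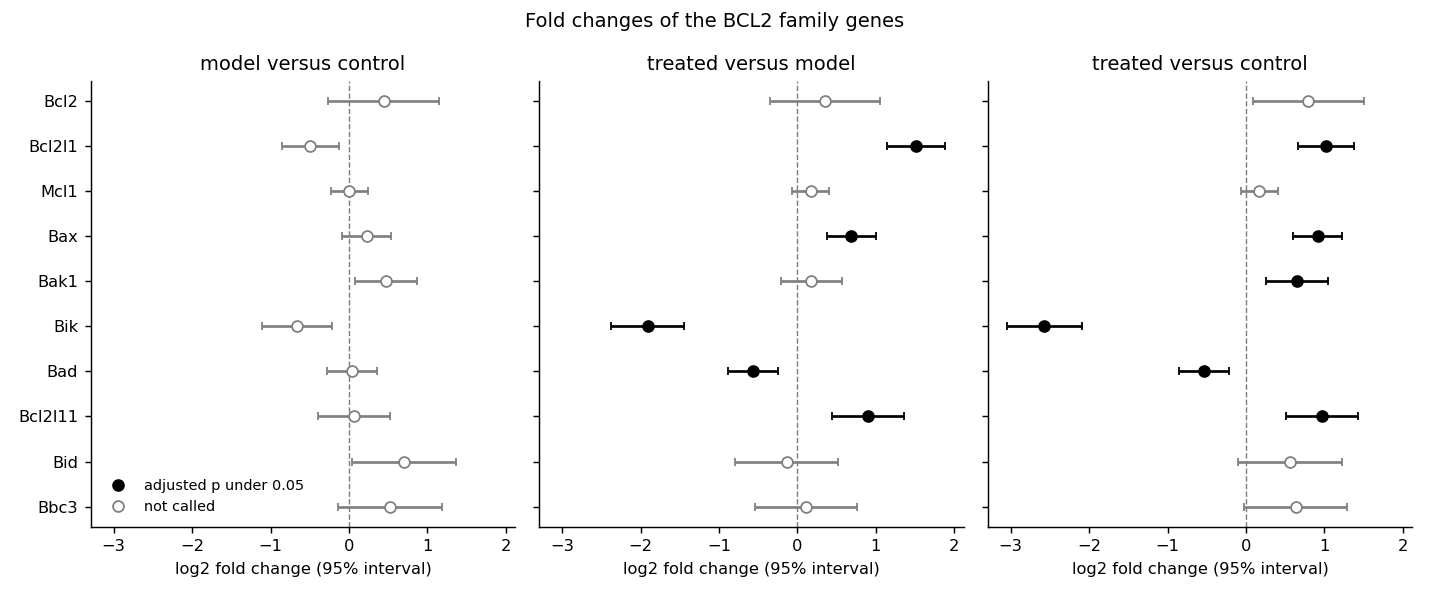
Log2 fold change (horizontal axis) of the 10 genes in the 3 comparisons, with 95% intervals from the edgeR fit. Filled points were called at an adjusted p under 0.05 and open points were not. No point is filled in model versus control, 5 are in treated versus model and 6 in treated versus control, and the intervals of Bid and Bbc3 are among the widest.

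The same counts can be set against all genes by direction. In model versus control, 0 of the 10 genes were called higher and 0 lower by edgeR, DESeq2 or limma-voom, against 0.519% and 0.596% of all genes by edgeR. At an unadjusted p under 0.05, 2 were higher (Bak1 and Bid) and 2 lower (Bcl2l1 and Bik). By p, Bid ranked 2157 among the 18113 genes tested, so the genes ranked before it passed this threshold too. The share of all genes or transcripts at an unadjusted p was not counted, here or below. Libraries did not overlap for 3 of the 10, Bid, Bcl2l1 and Bik, against 20% of all genes. In treated versus model, 3 of 10 were higher and 2 lower, against 5.21% and 4.44% of all genes, and libraries did not overlap for 6, against 31.2%. In treated versus control, 4 were higher and 2 lower, against 9.36% and 8.47% of all genes, and libraries did not overlap for 8, against 37.3%. The median log2 fold change of the 10 genes was 0.15, 0.17 and 0.64 in the 3 comparisons, and that of all genes tested was -0.000915, 0.00522 and -0.00903. Without model replicate 1, the model library with muscle transcripts, the treated versus model count was 1 higher (Bcl2l1) and 1 lower (Bik). Of all 18859 genes in that fit, which has 1 library fewer to test, 525 were called higher and 357 lower.

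The order of the 10 genes by FPKM differed between groups in the middle ranks. In control, Mcl1 led with 24.5 ± 1.06 FPKM (SD, n = 3), followed by Bax with 15.2 ± 2.51. Bik at 6.16 ± 0.824, Bcl2l1 at 6.13 ± 0.929 and Bad at 5.66 ± 0.274 FPKM came next, and neighbours among these 3 overlapped. Bak1, Bbc3 and Bid lay below them, at 2.75, 2.31 and 1.78 FPKM, again with overlapping neighbours, and Bcl2l11 at 0.609 and Bcl2 at 0.126 FPKM closed the order. In model libraries the first and last places were the same, and Bad, Bcl2l1 and Bik followed Bax at 5.98, 4.50 and 3.99 FPKM, of which Bad lay apart from Bcl2l1 and the other 2 overlapped.

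In treated libraries, Bax at 33.5 ± 5.05 FPKM and Mcl1 at 32.2 ± 2.46 FPKM shared the top with overlapping libraries. Bcl2l1 followed alone with 14.5 ± 2.32 FPKM, and Bak1, Bad, Bbc3 and Bid came after it at 5.01, 4.58, 4.17 and 3.11 FPKM, each overlapping its neighbour. Bik, the third in control, was the ninth at 1.19 ± 0.117 FPKM, overlapping with Bcl2l11 at 1.41 ± 0.201 FPKM. FPKM are not TMM-scaled, and on log2(FPKM + 0.1) the median of all genes lay 0.147 higher in treated versus model and 0.191 higher in treated versus control than in the main fit, so levels across groups are read from CPM and only orders and ratios within a library from FPKM.

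Ratios within a library do not depend on that scaling. The ratio of Bcl2l1 to Bik was 0.752, 1.21 and 1.08 in control, 0.942, 1.12 and 1.40 in model, and 10.8, 10.8 and 15.1 in treated libraries. The ratio of Bcl2l1 to Bad ran from 0.911 to 1.34, from 0.670 to 0.889 and from 2.31 to 3.91 in the 3 groups. Against Bax, by contrast, Bcl2l1 held a ratio of 0.298 to 0.557 in control, 0.199 to 0.306 in model and 0.325 to 0.514 in treated libraries, so that treated and control overlapped. Summed over classes, prosurvival over BH3-only FPKM was 1.71 to 1.97 in control, 1.42 to 2.11 in model and 2.69 to 4.12 in treated libraries, and the treated libraries lay above the rest. Prosurvival over effector FPKM was 1.42 to 2.16, 1.16 to 1.47 and 1.10 to 1.43, with overlap between treated and both other groups. The BH3-only class itself shifted in makeup, with Bik at 36.0% to 39.6% of its FPKM in control, 20.8% to 25.5% in model and 6.51% to 11.6% in treated libraries, and Bcl2l11 at 2.52% to 4.47%, 3.22% to 4.68% and 8.25% to 12.5%. No test was made of these ratios, and RNA levels do not give the amounts of the proteins.

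**Figure D3:**
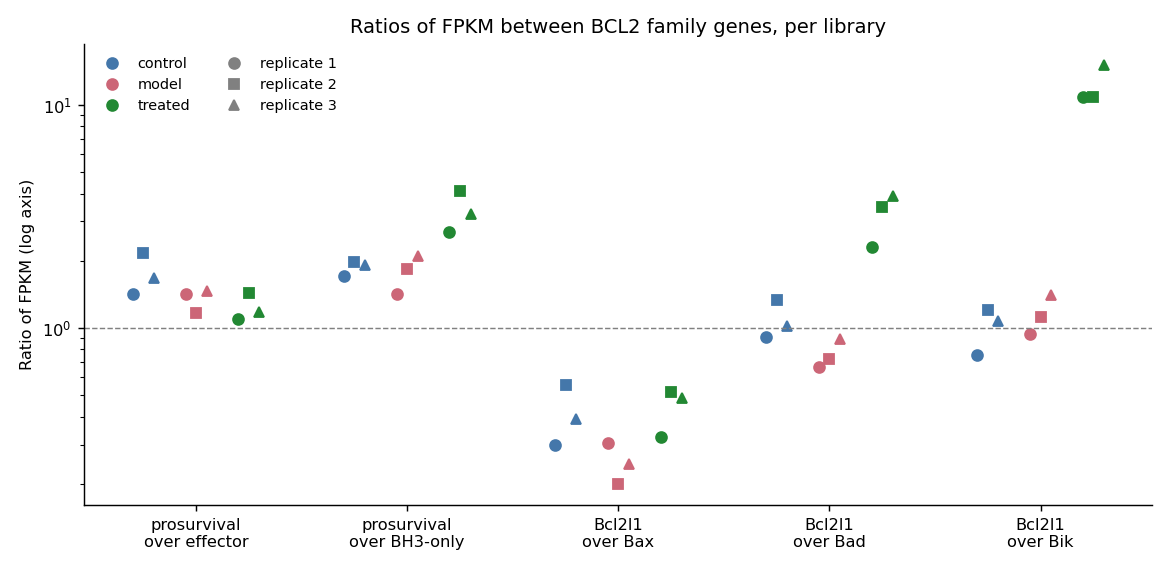
Ratio of FPKM between classes or genes within each library (vertical axis, logarithmic), coloured by group, with 1 symbol per library. The dashed line marks a ratio of 1. Bcl2l1 over Bik lies between 0.752 and 1.40 in control and model libraries and between 10.8 and 15.1 in treated libraries, while Bcl2l1 over Bax overlaps between treated and control libraries.

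**Figure D4:**
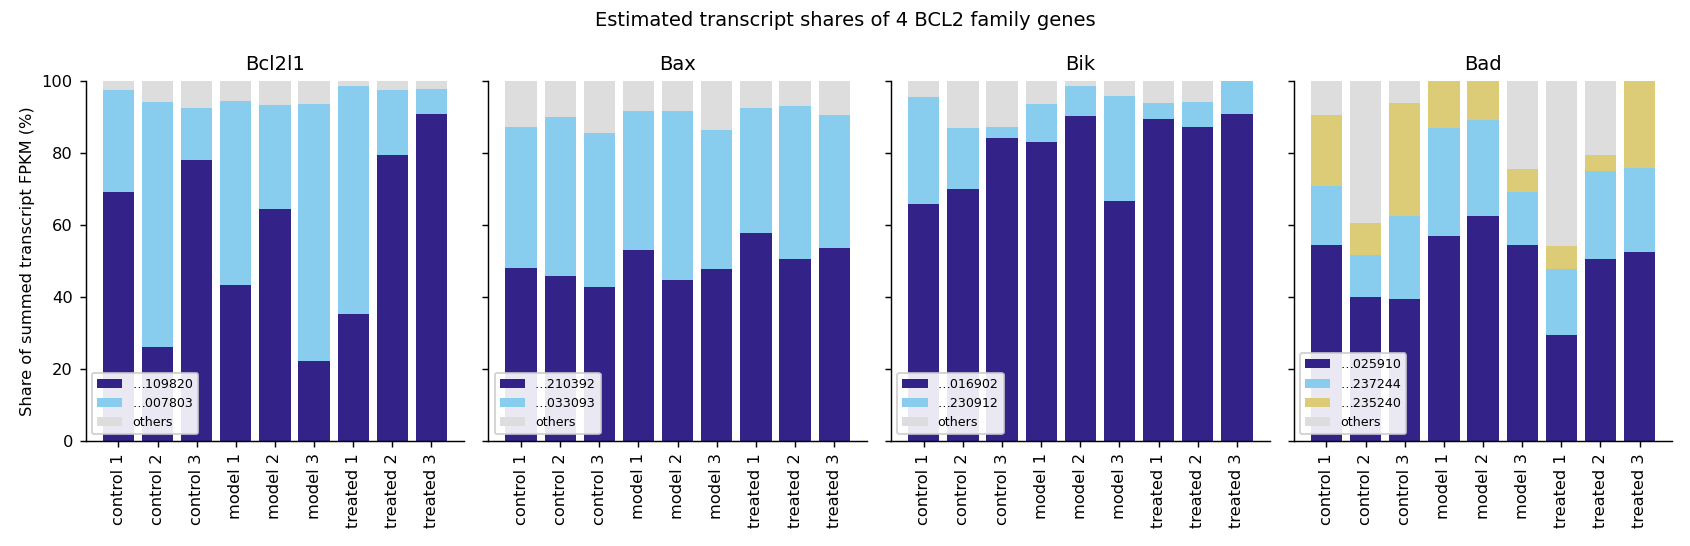
Share of a gene's summed transcript FPKM (vertical axis, percent) given to each transcript with at least 10% over all libraries, named by its last digits, for Bcl2l1, Bax, Bik and Bad in the 9 libraries, with the remaining transcripts in grey. The 2 main transcripts of Bcl2l1 exchange places between libraries of the same group, whereas those of Bax stay within 34.8% to 57.8%.

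Transcript by transcript, 42 annotated transcripts of the 10 genes were listed and 26 had counts enough for testing. In model versus control edgeR called none, with none at an unadjusted p under 0.05, and 0.0198% of all transcripts were called. In treated versus model it called none, with 7 at an unadjusted p under 0.05 (3 higher and 4 lower), and 0.305% of all transcripts were called. In treated versus control the 2 calls in Bax and Bik stood against 1.47% of all transcripts. Mcl1 and Bak1 were estimated almost wholly as 1 transcript each, at 100% and at 99.7% or more of the gene. Bad was divided among ENSMUST00000025910 with 29.3% to 62.4%, ENSMUST00000237244, a retained intron without coding sequence, with 11.6% to 29.9%, and ENSMUST00000235240 with 4.36% to 31.3%, and its groups overlapped in each share.

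Among the other relatives of the family, 17 of 20 listed genes were tested, among them Mtfp1, a mitochondrial fission gene that the list holds although it is no relative. None was called in model versus control by edgeR (2 lower at an unadjusted p under 0.05) or limma-voom, and DESeq2 called 1 lower. With edgeR, 2 were higher and 1 lower in treated versus model, against 5.21% and 4.44% of all genes, and 4 were higher and 2 lower in treated versus control, against 9.36% and 8.47%. The median log2 fold change of the list was -0.0413, 0.0465 and -0.0421 in model versus control, treated versus model and treated versus control. Bcl2a1b, a prosurvival relative of blood cells and inflamed tissue, stood at 0.304, 0.615 and 1.25 CPM in control, 0.865, 2.08 and 0.910 CPM in model and 7.63, 8.20 and 6.47 CPM in treated libraries (5.77-fold over model, adjusted p = 0.01). Its copy Bcl2a1d stood at 0.154 to 0.634, 0.198 to 0.437 and 2.30 to 2.70 CPM (7.96-fold over model, adjusted p = 0.00665), and Bcl2a1a at 0 to 0.41, 0.216 to 0.306 and 1.41 to 3.60 CPM, called against control (adjusted p = 0.046). These copies are nearly identical, so the division of reads among them is uncertain. The summed macrophage markers were also highest in treated libraries, as given above, although only 6 of the 15 were called against control. Their part in the Bcl2a1 values was not tested.

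Pmaip1, which encodes the BH3-only protein NOXA, a partner of MCL1, rose 5.30-fold from control to treated (adjusted p = 0.0327), from 0.135 to 0.858 CPM in control to 1.70 to 2.34 CPM in treated libraries. Bnip3, a mitophagy receptor that responds to low oxygen, fell from 241 to 346 CPM in control and 241 to 274 CPM in model to 140, 164 and 154 CPM in treated libraries. Its log2 fold change was -0.74 from model (adjusted p = 0.00805) and -0.91 from control (adjusted p = 0.00131). Bok, an effector-like relative, fell from 13.3 to 20 CPM in control to 8.26 to 10.5 CPM in treated libraries (log2 fold change -0.86, adjusted p = 0.027) and stood at 6.14, 9.81 and 11.6 CPM in model libraries.

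Downstream of the mitochondrion, in the list of the apoptosome, caspases and release factors, 19 of 19 genes were tested. None was called in model versus control by edgeR (1 higher at an unadjusted p under 0.05) or limma-voom, and DESeq2 called 1 higher. With edgeR, 2 of the 19 were higher in treated versus model, where 9.65% of all genes were called, and 1 was lower in treated versus control, where 17.8% were. The list's share was thus close to that of all genes in the former comparison and below it in the latter, and its medians in the 3 comparisons were 0.036, -0.0219 and 0.0488 on the log2 scale. Apaf1, the scaffold of the apoptosome, rose 1.96-fold from 1.86, 2.80 and 2.66 CPM in model to 5.09, 4.64 and 4.58 CPM in treated libraries (adjusted p = 0.036). It stood at 3.93, 3.19 and 2.65 CPM in control, and its 1.46-fold difference between treated and control was not called (edgeR adjusted p = 0.159). Casp9, the caspase that Apaf1 recruits, fell by 0.69 on the log2 scale from control to treated (adjusted p = 0.04), from 17.4, 20.7 and 15.1 CPM to 9.75, 9.64 and 13.6 CPM. The call of Apaf1 was lost without any 1 model or treated library.

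Of 11 inhibitors of apoptosis, none was called in model versus control by edgeR (1 higher and 1 lower at an unadjusted p under 0.05), DESeq2 or limma-voom. With edgeR, 1 was higher in treated versus model, where 9.65% of all genes were called, and 2 were higher and 1 lower in treated versus control, where 17.8% were. The list's medians were 0.197, 0.11 and 0.309 on the log2 scale. Birc5, which encodes survivin, a protein of dividing cells, rose 2.27-fold from model (adjusted p = 0.0457, a call kept in 1 of the 9 fits that each left out 1 library) and 3.38-fold from control (adjusted p = 0.00484). Cflar, the inhibitor of caspase-8 at death receptors, fell by 0.38 on the log2 scale from control to treated (adjusted p = 0.0484), a call kept in 1 of 9 such fits and under 3 of 10 other alternatives. The other gene called higher was Arc, a neuronal immediate early gene that the list holds by its symbol and that is not the caspase inhibitor of the same acronym. It was at 0 in all control libraries and at 0.249 to 0.412 CPM in treated libraries.

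In the death receptor list 15 of 15 genes were tested. By edgeR, 1 was higher in model versus control, 3 were higher and 1 lower in treated versus model, and 4 were higher and 1 lower in treated versus control, against 1.12%, 9.65% and 17.8% of all genes called. The list's medians were 0.174, 0.245 and 0.552 on the log2 scale. Mlkl, the executioner of necroptosis, was the 1 gene of the pathway lists that edgeR called in model versus control, where DESeq2 called 3 higher and 1 lower, and had levels of 2.29, 2.54 and 2.09 CPM in control, 5.60, 5.39 and 3.55 CPM in model and 9.99, 8.89 and 10.1 CPM in treated libraries. The groups did not overlap. Its rise was 2.10-fold from control to model (adjusted p = 0.0446), 1.99-fold from model to treated (adjusted p = 0.016) and 4.18-fold from control to treated (adjusted p = 0.000186). Ripk3, the kinase that activates MLKL, rose 2.61-fold from control to treated (adjusted p = 0.0138). Tnfrsf1b, a receptor for tumour necrosis factor mostly of immune cells, rose 2.82-fold from model (adjusted p = 0.0393) and 2.35-fold from control (adjusted p = 0.0495), and Tnfrsf21 rose 1.60-fold from model (adjusted p = 0.0388). Tnfrsf1a, the broadly expressed receptor, rose 1.68-fold from control (adjusted p = 0.00132). Tnfsf10, which encodes the death ligand TRAIL, fell by 1.5 on the log2 scale from model (adjusted p = 0.0314) and by 1.23 from control (adjusted p = 0.0446). The call of Mlkl in model versus control was lost with limma-voom, in the fit of 2 groups and on the FPKM scale. It was also lost with replicate number added to the fit as a block, and without any 1 library other than model replicate 3.

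Of 25 tested regulators that act on BCL2 family genes or proteins, none was called in model versus control by edgeR (3 higher and 3 lower at an unadjusted p under 0.05), DESeq2 or limma-voom. With edgeR, 6 were higher and 1 lower in treated versus model, where 5.21% and 4.44% of all genes were, and 7 were higher and 2 lower in treated versus control, where 9.36% and 8.47% were. The list's medians were -0.0834, 0.289 and 0.234 on the log2 scale. Rela, an NF-kappaB subunit, stood at 56.3, 53.7 and 50.1 CPM in control, 48.3, 49.9 and 53.7 CPM in model and 121, 85.5 and 94.4 CPM in treated libraries, a 1.98-fold rise over model (adjusted p = 0.00115). Relb, its partner in the same family, rose 3.65-fold over model (adjusted p = 0.00362), and Ddit3, the stress factor CHOP, rose 1.93-fold over model (adjusted p = 0.0039). Ddit3 stood at 12.1, 12.9 and 13.2 CPM in control, 9.26, 8.99 and 9.22 CPM in model and 20.1, 19.3 and 13.7 CPM in treated libraries. Its model libraries thus lay below the controls, and Ddit3 was not called in treated versus control. Jun, an AP-1 subunit, stood at 10.8, 6.58 and 9.39 CPM in control, 8.97, 20.4 and 13.1 CPM in model and 50.8, 62.1 and 70.1 CPM in treated libraries and rose 6.82-fold over control (adjusted p = 0.000629). Ywhaz, which encodes a 14-3-3 protein of the kind that holds BAD, rose 1.58-fold from control to treated (adjusted p = 0.00107). Gata4, a transcription factor of liver endothelium and stellate cells as well as of other tissues, fell by 1.12 on the log2 scale from model (adjusted p = 0.00159) and by 1.37 from control (adjusted p = 0.000247), and Stat5b fell by 0.65 from control (adjusted p = 0.00724). Summed endothelial markers were lower in treated and already in model libraries, as given above. Gata4 was not called in model versus control (log2 fold change -0.25, edgeR adjusted p = 0.516). Of the 12 stellate cell markers, 2 were called higher and 4 lower in treated versus control. The part of either cell type in the Gata4 values was not tested.

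Over all 5 lists, 8 of the 17 calls in treated versus model were kept with each library left out in turn, namely those of Bcl2a1b, Bcl2a1d, Bnip3, Ddit3, Gata4, Jun, Rela and Relb. In treated versus control 12 of 24 were kept, namely those of Bcl2a1b, Bcl2a1d, Birc5, Bnip3, Gata4, Jun, Mlkl, Rela, Relb, Stat5b, Tnfrsf1a and Ywhaz. Of these, Bnip3 against model was lost on log2(FPKM + 0.1) and Stat5b on both FPKM scales, which left 7 and 11 calls kept under all alternatives. The other pathway calls named above were lost without at least 1 library, and those of Arc, Bcl2a1a and, against model, Tnfrsf1b were kept in 1 of the 9 fits that each left out 1 library. Those of Tnfrsf1b and Tnfsf10 against control were kept in 2 of 9.

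Genes whose pattern over the 9 libraries lay closest to each called gene were found by the root mean square difference of centred log2(CPM + 0.5) among 9411 genes. For Bcl2l1 these were Arhgef3 (0.204), Plekho1 (0.214) and Rhob (0.222), against a median of 0.683 over the genes compared. For Bik they were Cpsf4l (0.285), Ces3b (0.286) and Gas1 (0.313), against a median of 1.00. For Bax they were Nudt18 (0.0799), Rpl12 (0.11) and Dhx58 (0.113), against 0.467, and for Bcl2l11 S100a10 (0.141), Cdc42ep1 (0.153) and Tgm2 (0.159), against 0.513. For Bad they were Bola1 (0.0567), Akr7a5 (0.0753) and Rabggta (0.094), against 0.348, and for Bak1 Aimp2 (0.123), Nadk (0.124) and Entpd2 (0.128), against 0.388. The nearest gene differed for each, and none of the 6 called genes was among the 3 nearest of another. With 9411 genes compared, this says little about whether the 6 patterns differ. The smallest differences also lie below the median by construction.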

How the data were processed

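Polyadenylated RNA of 9 liver libraries (3 control, 3 model, 3 treated) was sequenced after TRIzol extraction and an Illumina preparation, per the labels' protocols. Reads were aligned with HISAT2, which the submitters' processing notes name without a version. Which program quantified them, whether it used strand, and with which annotation, is not given in the sources used here. Both estimated counts, as whole numbers, and FPKM were deposited by the authors for genes and transcripts, per the file headers. Summing the counts of a gene's transcripts gave its gene count in 99.9932% of cases. Positions are those of the files, and all 10 genes had the same span in GENCODE M21 (GRCm38).

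The tests on counts were those of edgeR 4.0.16 under R 4.3.3 (TMM, filterByExpr with a minimum count of 10 and total of 15, robust quasi-likelihood F tests, 1 fit over all 9 libraries), with Benjamini-Hochberg adjustment within each comparison and calls at an adjusted p under 0.05. SEs are the log2 fold change divided by the root of F. Transcripts were tested alike. Libraries held 56440871 to 60665156 counts. The procedure was tested on simulated data. The genes and lists were chosen with earlier results of these data known. Named from pathway lists were all called genes, or up to 3 per direction with the smallest p where more than 6 were called; for each called member, the 3 nearest genes in pattern with at least 5 CPM and an official symbol; and transcripts with at least 10% of their gene. A gene that this rule names is not reported here. Alternatives used DESeq2 1.42.0, limma 3.58.1, other scalings and filters, a replicate block and leaving out each library. Promoters of 9 of the 10 genes were found in RefSeq, by symbol.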

Additional observations from a re-analysis of the deposited data

How the results depend on the processing

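Bcl2l1 and Bik kept their calls in both comparisons with treated libraries under all alternatives, as did Bax and Bcl2l11 against control. Of 570 values of the 10 genes under alternatives, 531 kept direction and side of the threshold, 25 lost and 3 gained a call, and 11 changed sign, each of the last in a comparison in which the gene was not called. Gained calls were in treated versus control: Bcl2 on log2(FPKM + 0.1) (adjusted p = 0.0371), Mcl1 on log2(FPKM + 1) (adjusted p = 0.0285), and Bbc3 without treated replicate 2 (adjusted p = 0.0367). The cause was not tested for the changes given here, except that leaving out a library or group leaves fewer data.

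In model versus control, Mcl1 turned to -0.000352 with upper quartile scaling and -0.00135 with limma-voom on the log2 scale. With 1 library left out, uncalled genes whose sign turned ranged from -0.0991 to 0.0615 (Mcl1), -0.123 to 0.254 (Bcl2l11) and -0.115 to 0.125 (Bad) in model versus control, and from -0.556 to 0.0469 (Bid) and -0.176 to 0.388 (Bbc3) in treated versus model.

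Counts in model versus control were 94 genes higher and 108 lower, 454 and 416 with DESeq2, 61 and 59 with the replicate block, and 28 to 112 and 26 to 119 with 1 library left out. The pathway lists had 1 higher and 0 lower, 2 higher with DESeq2 size factors, upper quartile scaling or no filter, 3 higher and 1 lower with DESeq2, 0 higher with limma-voom, the 2 groups alone or the replicate block, and 0 to 1 higher with 1 library left out. In treated versus model, 943 genes were higher and 805 lower, 1479 and 1272 with DESeq2, and 525 to 915 and 357 to 745 with 1 library left out. The lists had 14 higher and 3 lower, with 6 lower under upper quartile scaling, 5 under DESeq2, and 7 to 14 higher and 2 to 3 lower with 1 library left out. Members called lower were 1, not 2, in the fit of 2 groups, and 1 to 3 were higher and 1 to 2 lower with 1 library left out. In treated versus control, 1696 genes were higher and 1535 lower, and 1170 to 1631 and 999 to 1394 with 1 library left out. The lists had 17 higher and 7 lower, with 11 higher under the replicate block and 11 to 15 and 3 to 6 with 1 library left out, and members 3 to 4 and 1 to 2. The transcript of Bax was not called without the filter (0 transcripts higher).

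Replicate numbers do not pair the libraries: deviations of same-numbered libraries correlated at -0.0756 to 0.0716, and the replicate block changed no member's call. On the FPKM scale, 81.9% and 79.1% of calls were higher in treated versus model and treated versus control, against 53.9% and 52.5% on TMM-scaled counts. With 3 libraries a group, the 95% intervals of Bcl2, Bid and Bbc3 were wide, and a missed threshold does not show that their levels were equal.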
